A study of Mus musculus with 5 samples.

Results

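Of the 32285 genes in the count matrices, 10 that switch on MHC class I expression or prepare peptides for it are described here through the cell classes of the mouse mammary gland. They are Nlrc5, Tap1, Tap2, Tapbp, Psmb8, Psmb9, Psmb10, Psme1, Psme2 and Erap1, matched by symbol, and each symbol occurs once. The members were selected on measured values: an earlier look at the same 5 libraries had given the differences between genotypes, among them Nlrc5 and Psmb9 in luminal progenitor-like cells. Differences between genotypes are therefore a description and carry no test in the epithelial classes, while the comparison of cell classes did not enter the choice.

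Single cells of whole mammary gland were captured with a droplet kit that reads the 3′ end of transcripts, in 3 libraries labelled Frmd3 knockout (KO1, KO2, KO3) and 2 labelled wild type (WT1, WT2). Strain, age, stage of the gland, the deleted part of Frmd3 and any treatment are not stated in the labels, and nothing says that the libraries came from separate mice. A p-value between genotypes therefore measures the spread between libraries. A p-value between classes measures the spread that remains once differences between whole libraries are taken out. The unit is the unique molecular identifier (UMI), 1 per captured transcript. UMIs were summed per library and cell class and expressed as counts per 1000000 UMIs of that sum (CPM).

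A floor of 500 detected genes and a ceiling of 15% mitochondrial UMIs left 28588 cells, and 26834 of them remained after doublets were removed. The libraries held 9450, 4440 and 2218 such cells in KO1, KO2 and KO3, against 4831 and 5895 in WT1 and WT2, with median depths of 4144.5, 12814.5 and 6694.5 UMIs against 8524 and 11976 UMIs. Between 3 and 22 cell barcodes were shared by any 2 libraries, at most 0.357% of the smaller one. Of the cells of KO1, 40.8% fell in clusters that could not be named, against 1.44% to 5.38% in the other libraries. Most of them, 3779 cells, were in a cluster led by Wfdc17, Cd209f and Lyve1, which held 0 to 73 cells of each other library. All 7 macrophage markers were detected there, but its macrophage score was too close to that for luminal progenitor-like cells, and it entered no class. KO3 stood apart: 8 heat-shock genes together were higher there than in any other library in 11 of 11 classes, by 1.59 to 3.70 times the next library. Frmd3 itself had 130, 190 and 41 UMIs over all cells of KO1, KO2 and KO3, against 74 and 186 UMIs in WT1 and WT2. A 3′ tag outside the deleted part would still be counted, so these UMIs check nothing about the labels.

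MHC class I molecules show fragments of a cell's own proteins to cytotoxic T cells. NLRC5 is the transactivator that switches on class I genes together with factors bound at their promoters. Peptides are cut by the proteasome, whose 3 catalytic subunits PSMB5, PSMB6 and PSMB7 can be replaced by the immunosubunits PSMB8, PSMB9 and PSMB10, and which can be capped by the activator made of PSME1 and PSME2. The transporter of TAP1 and TAP2 pumps peptides into the endoplasmic reticulum, where ERAP1 trims them and tapasin, the product of Tapbp, helps load them. In many tissues most of these genes respond to interferons.

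The genes lie in a few clusters of the genome, given here on GRCm38 (mm10) from GENCODE M21. On chromosome 17, within the MHC, lie Tapbp (ENSMUSG00000024308, chr17:33915899-33929292, plus strand), Psmb9 (ENSMUSG00000096727, chr17:34181987-34187764, minus strand) and Tap1 (ENSMUSG00000037321, chr17:34187553-34197225, plus strand). They are followed by Psmb8 (ENSMUSG00000024338, chr17:34197721-34201454, plus strand) and Tap2 (ENSMUSG00000024339, chr17:34203527-34216321, plus strand). Chromosome 14 holds Psme1 (ENSMUSG00000022216, chr14:55578123-55581529, plus strand) and Psme2 (ENSMUSG00000079197, chr14:55587441-55591113, minus strand). Chromosome 8 holds Nlrc5 (ENSMUSG00000074151, chr8:94434356-94527272, plus strand) and Psmb10 (ENSMUSG00000031897, chr8:105935735-105938444, minus strand), and chromosome 13 holds Erap1 (ENSMUSG00000021583, chr13:74639568-74693201, plus strand). Tapbp overlaps Zbtb22 on the same strand, and their reads could be split by the counting. On opposite strands Tap1 overlaps Psmb9, Psme1 overlaps Emc9 and Erap1 overlaps Cast; whether the counting used strand is not given in the sources used here.

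Promoter windows of 250 bases before to 50 bases after the start site were available from RefSeq (GRCm38.p6) for 8 of the 10 genes; Nlrc5 and Tap2 had no entry. The 4 stretches of 30 bases are shown because they hold the searched motifs, with the motif in capitals and all read on the plus strand. The first spans the start of Psmb9 and lies upstream of Tap1; the genes start head to head, with 225 bases between their start sites. It holds a CCAAT box (chr17:34187322-34187351), found in 37.4% of 32851 promoter windows.
Tap1 and Psmb9: gggctcggctttCCAATcagcggctgcgcg
The stretch upstream of Psmb8 (chr17:34198088-34198117) holds the gamma-activated sequence TTCNNNGAA, found in 8.30% of windows.
Psmb8: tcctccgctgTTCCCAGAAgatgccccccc
Those at the start of Psme1 (chr14:55578494-55578523) and Erap1 (chr13:74639837-74639866) hold the core of the interferon-stimulated response element, GAAANNGAA, on the opposite strand. It was found in 8.56% of windows, and Erap1 has 2 overlapping copies.
Psme1: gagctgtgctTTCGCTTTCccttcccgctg
Erap1: gtccaccTTCACTTTCACTTTCggtcccgg
Both strands were searched. The windows of Psmb10 and Psme2 held none of these motifs nor the cAMP response element TGACGTCA (1.79% of windows), and that of Tapbp held 2 CCAAT boxes. A match is a run of letters, not a site of binding.

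Of the 10 genes, 9 had their highest mean in blood endothelial-like or immune classes and 8 their lowest in basal/myoepithelial-like or pericyte/smooth muscle-like cells. Psme2 was highest in hormone-sensing luminal-like and lowest in luminal progenitor-like cells, and Erap1 was lowest in hormone-sensing luminal-like cells. In all, 12 classes had at least 20 cells in 2 or more libraries of each genotype, and each was named from its markers. Of these same markers, 7 of 8 of luminal progenitor-like cells and every one of the other 11 classes exceeded the mean of the remaining classes. Since the markers gave the names, that is no separate check. Nlrc5 averaged 48.0 ± 13.5 CPM in T cell-like cells (SD, n = 5 libraries). Its pericyte/smooth muscle-like UMIs were 2, 1 and 0 in the KO libraries, against 7 and 0 in the WT libraries, under a floor of 3 UMIs in 4 of 5 libraries. The highest mean of Psmb9 was 12.2 times its lowest and that of Psmb8 10.6 times, both lowest in basal/myoepithelial-like cells. Psme2 and Erap1 were the most even, with ratios of 2.95 and 2.31. Along the order of classes by mean, the ranges over libraries overlapped in 108 of 110 neighbouring pairs. Neighbours in a sorted order are close by construction, and these ranges do not pair classes within a library, so overlap does not show equal levels. The fit described below, with the library as a block, separated Psmb8 in pericyte/smooth muscle-like from its neighbour, fibroblast-like cells. It did not separate Psmb8 in fibroblast-like and luminal progenitor-like cells, also neighbours.

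**Figure D1:**
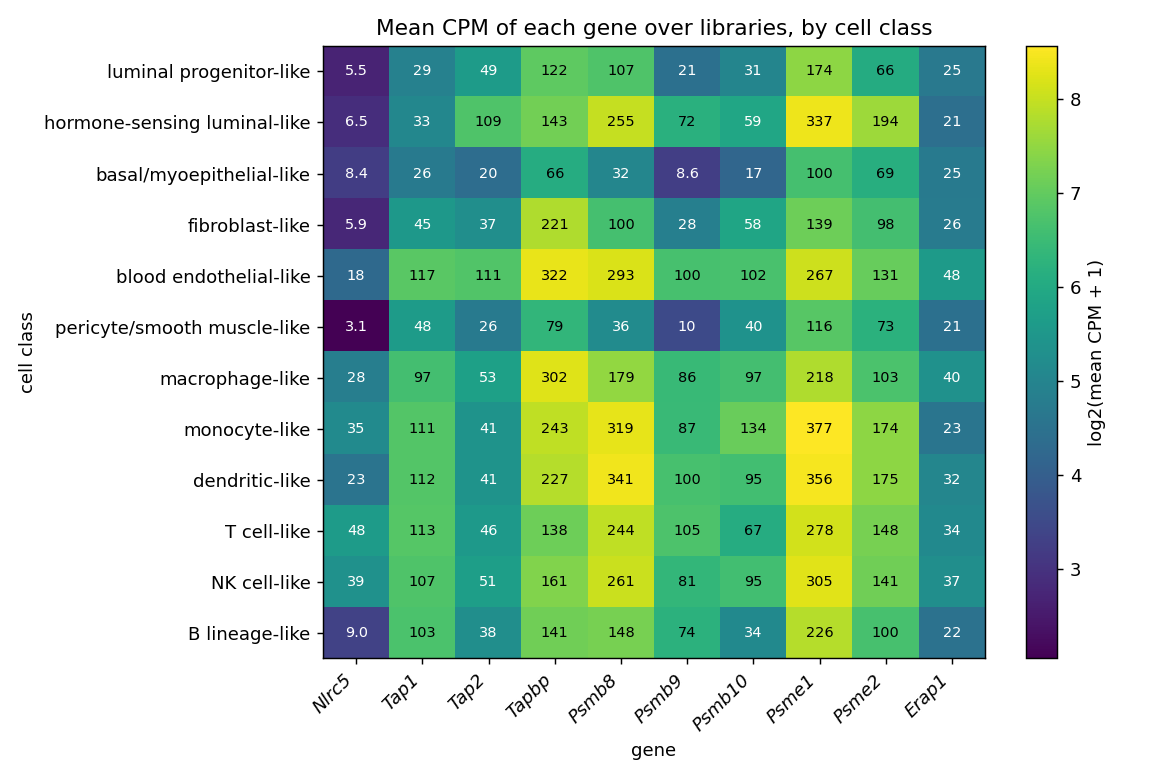
Mean CPM of each of the 10 genes (columns) over the libraries of each of the 12 cell classes (rows); colour is log2(mean CPM + 1) and the number in a square is the mean CPM. Nlrc5 is at 48.0 CPM in T cell-like and 5.46 CPM in luminal progenitor-like cells, and Psmb8 is at 341 CPM in dendritic-like and 32.1 CPM in basal/myoepithelial-like cells.

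Each class was compared with fibroblast-like cells, the most numerous class, in 1 edgeR fit over all classes with the library as a block and a threshold of 0.05 on the adjusted p. A share of genes higher or lower follows each count, taken over the 12309 genes tested. Nlrc5 was higher than in fibroblast-like cells in 6 of 11 classes and lower in none. It was above them by a log2 difference of 2.88 ± 0.35 (SE) in T cell-like cells (adjusted p = 3.28e-10), 2.49 ± 0.36 in NK cell-like cells and 2.45 ± 0.40 in monocyte-like cells. In the 3 epithelial classes it was at 5.46 ± 3.91, 6.54 ± 6.20 and 8.41 ± 6.33 CPM in luminal progenitor-like, hormone-sensing luminal-like and basal/myoepithelial-like cells, against 5.90 ± 3.49 CPM in fibroblast-like cells (SD, n = 5), and the test did not separate them (adjusted p = 0.895, 0.647 and 0.564).

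Among immune classes, macrophage-like cells had 9 of the 10 genes above fibroblast-like cells and none below (28.7% of all genes higher, 34.3% lower), with Psme2 the one not called. Monocyte-like and dendritic-like cells had 7 each above and none below. The background was 25.1% higher and 34.4% lower for monocyte-like cells and 26.9% and 33.4% for dendritic-like cells. T cell-like and NK cell-like cells had 5 each above and 1, Tapbp, below (30.1% and 38.3% of all genes for T cell-like, 29% and 38% for NK cell-like). B lineage-like cells had Tap1 and Psmb9 above and Tapbp and Psmb10 below (27.7% and 37.1% of all genes). Blood endothelial-like cells, which line vessels, had 8 above and none below (18.5% and 25% of all genes), led by Psmb9 with 1.64 ± 0.35 and Tap2 with 1.48 ± 0.20 (SE). Without KO2 that count was 4, and KO1 held 2 such cells and was not used.

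Contractile cells had most of the 10 genes below fibroblast-like cells. Basal/myoepithelial-like cells, which surround the ducts, had 8 of 10 genes below fibroblast-like cells and none above (29.3% of all genes lower, 20.2% higher). Tapbp was at 66.5 ± 12.9 CPM there, against 221 ± 32.5 CPM in fibroblast-like cells (SD, n = 5), a log2 difference of -1.98 ± 0.19 (SE; adjusted p = 5.95e-13). Psmb10 was lower by a log2 difference of -1.97 ± 0.27 and Psmb9 by -1.95 ± 0.44. Pericyte/smooth muscle-like cells had 7 below and none above (25.1% and 15.4% of all genes), with Psmb8 at -2.05 ± 0.34 (SE). Without KO1 that count was 4, and without scaling factors it was 3. Nlrc5 and Erap1 were not called in either class.

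Within the epithelium the 2 luminal classes differed in peptide processing but not detectably in the transactivator. Hormone-sensing luminal-like cells, which carry the oestrogen and progesterone receptors, had 5 genes above fibroblast-like cells and 1 below (33.3% and 32.8% of all genes). Tap2 averaged 109 ± 46.3 CPM there, against 37.4 ± 19.5 CPM in fibroblast-like cells (SD, n = 5), a log2 difference of 1.54 ± 0.18 (SE; adjusted p = 1.44e-10). Psmb9 was higher by 1.41 ± 0.30, Psmb8 by 1.38 ± 0.26, Psme1 by 1.22 ± 0.19 and Psme2 by 0.94 ± 0.20, and Tapbp was lower, at -0.67 ± 0.17. Luminal progenitor-like cells, the ductal cells that give rise to milk-secreting alveoli, had 4 genes below fibroblast-like cells, namely Tap1, Tapbp, Psmb10 and Psme2, and none above, or 1 above without scaling factors (31.7% and 29% of all genes).

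Set against each other, luminal progenitor-like cells had 6 of the 10 genes below hormone-sensing luminal-like cells and none above (23.3% and 19.7% of all genes). Psmb9 differed by a log2 value of -1.76 ± 0.32 (adjusted p = 1.21e-05), Psme2 by -1.56 ± 0.21 and Psmb8 by -1.30 ± 0.27 (SE). Nlrc5, Tap1, Tapbp and Erap1 were not called, at -0.24 ± 0.36, -0.27 ± 0.20, -0.27 ± 0.18 and 0.23 ± 0.25. Over basal/myoepithelial-like cells, luminal progenitor-like cells had 6 genes above and none below (21.7% and 17.6% of all genes). These were Psmb8 by 1.92 ± 0.30, Psmb9 by 1.59 ± 0.45, Tap2 by 1.49 ± 0.23, Psmb10 by 1.08 ± 0.28, Tapbp by 1.03 ± 0.19 and Psme1 by 0.99 ± 0.20 (SE).

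Other genes of the pathway did not all follow. The constitutive subunits Psmb5, Psmb6 and Psmb7 were also higher in hormone-sensing luminal-like than in fibroblast-like cells, by 1.26 ± 0.17, 1.08 ± 0.18 and 0.86 ± 0.14 (SE), as were 10 of 11 other genes of the 20S core, whose median log2 difference was 0.77 (0.01 over all genes, of which 33.3% were higher). In the contrast of luminal progenitor-like over hormone-sensing luminal-like cells, 8 of 11 core genes were lower and none higher (23.3% and 19.7% of all genes), with a median of -0.49. The proteasome maturation factor Pomp was lower there as well, at -0.90 ± 0.16. Of 10 class I heavy chain and B2m genes only H2-M3 and H2-T22 were called between the 2 luminal classes, both lower in luminal progenitor-like cells, at -1.10 ± 0.23 and -0.93 ± 0.18. Between luminal progenitor-like and basal/myoepithelial-like cells, 7 of these 10 were higher and none lower (21.7% and 17.6% of all genes), with a median of 1.07 (0.10 over all genes). Of 13 interferon receptors and signal transducers, 3 were lower in luminal progenitor-like than in hormone-sensing luminal-like cells and 2 higher, close to the 23.3% and 19.7% of all genes; the lower ones were Jak2, Irf1 and Stat2, at -2.10 ± 0.25, -1.83 ± 0.31 and -0.77 ± 0.26. In macrophage-like over fibroblast-like cells 9 of the 10 class I genes were higher (28.7% of all genes), with a median of 1.29 (-0.11 over all genes), while of the 4 loading partners Calr, Canx, Pdia3 and Tapbpl, 2 were higher and 2 lower. In luminal progenitor-like over hormone-sensing luminal-like cells, 2 of 9 factors that act at class I and class II promoters were higher and none lower, and 3 of 6 other peptidases were higher and 1 lower, against 19.7% and 23.3% of all genes.

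The share of immunosubunits ordered the classes in the same broad way and needs no scaling of libraries. It is the UMIs of Psmb8, Psmb9 and Psmb10 as a percent of these plus those of Psmb5, Psmb6 and Psmb7, and capture may differ between genes, so 50% need not mean equal numbers of transcripts. The share was 12.6 ± 4.95% in basal/myoepithelial-like, 21.9 ± 16.3% in pericyte/smooth muscle-like and 27.9 ± 7.61% in luminal progenitor-like cells (SD, n = 5). Hormone-sensing luminal-like and fibroblast-like cells were close together at 40.2 ± 4.89% and 40.7 ± 6.75% (SD, n = 5). Immune classes ran from 48.4 ± 12.4% in B lineage-like cells (SD, n = 4) to 62.1 ± 7.44% in monocyte-like cells, and blood endothelial-like cells were at 63.0 ± 3.71% (SD, n = 4). The 3 pairs were not equal: in luminal progenitor-like cells Psmb8 made up 46.4% of the Psmb8 and Psmb5 UMIs, Psmb10 24.4% of the Psmb10 and Psmb7 UMIs and Psmb9 9.74% of the Psmb9 and Psmb6 UMIs.

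**Figure D2:**
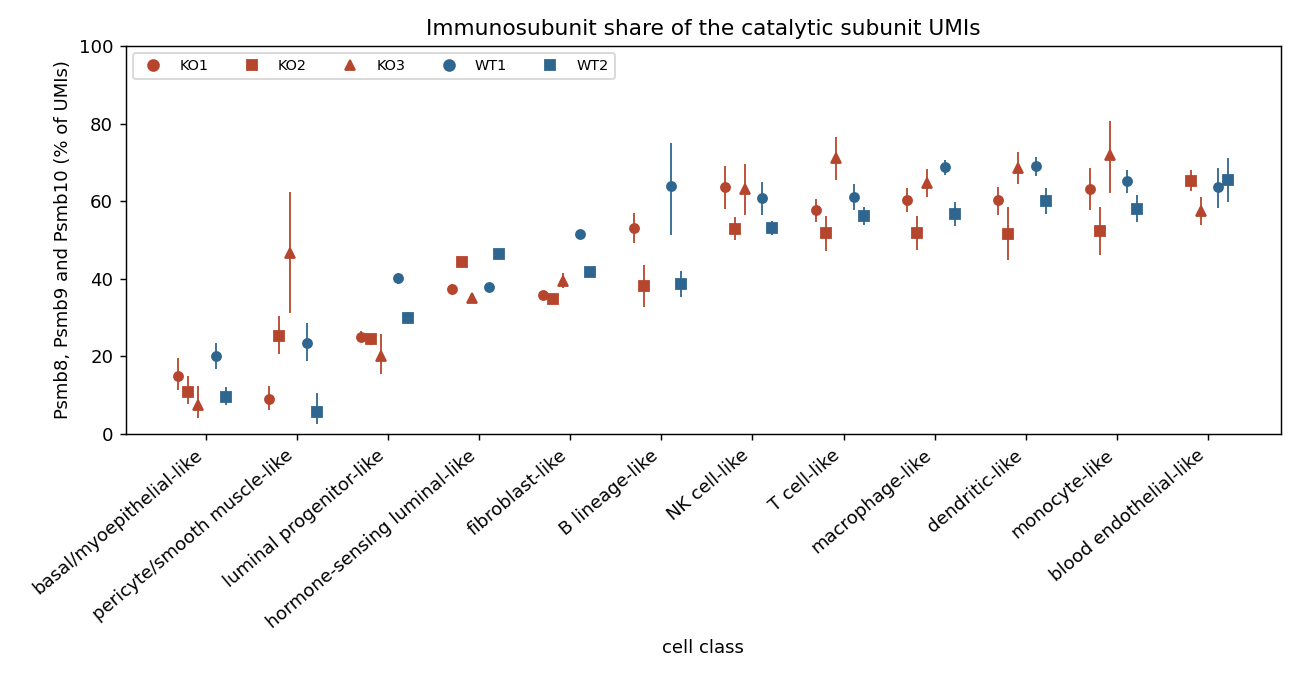
Percent of the UMIs of 6 catalytic subunit genes that came from Psmb8, Psmb9 and Psmb10 (y axis) in each library, by cell class (x axis, ordered by mean), KO libraries in red left of WT libraries in blue; bars are 95% exact Clopper-Pearson intervals, for counting error only. Basal/myoepithelial-like cells average 12.6% and blood endothelial-like cells 63.0%, and in luminal progenitor-like and fibroblast-like cells the 3 KO libraries lie below both WT libraries.

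In luminal progenitor-like cells the 3 KO libraries had immunosubunit shares of 25.05%, 24.4% and 20.2%, against 40.1% and 29.7% in WT1 and WT2. The groups did not overlap, although KO3 rests on 49 immunosubunit UMIs (95% exact Clopper-Pearson interval 15.3% to 25.8%). In fibroblast-like cells KO libraries averaged 36.6 ± 2.44% (SD, n = 3), against 46.7 ± 6.94% in WT libraries (SD, n = 2), again without overlap. In the other 10 classes the groups overlapped.

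Tap1 and Tap2 encode the partners of the transporter but were not found in a fixed ratio. Tap1 made up 25.5 ± 11.7% of the Tap1 and Tap2 UMIs in hormone-sensing luminal-like cells, 37.5 ± 10.3% in luminal progenitor-like cells, and up to 73.0 ± 5.03% in monocyte-like cells (SD, n = 5). The libraries differed as well: in fibroblast-like cells the Tap1 share was 46.1%, 44.9% and 75.5% in KO1, KO2 and KO3, against 57.1% and 50.0% in WT1 and WT2. KO3 had the highest Tap1 share in 11 of the 11 classes it could be measured in. Tap2 was lowest in KO3 in 9 of 10 classes that all libraries held, with 12.9 CPM in fibroblast-like cells of KO3 and 32.1 to 66.4 CPM in the other libraries. KO3 is also the library counted with Cell Ranger 6.1.2, the others with 6.0.2 per the file headers, and the part of that difference and of the heat-shock genes in the Tap2 counts was not tested.

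**Figure D3:**
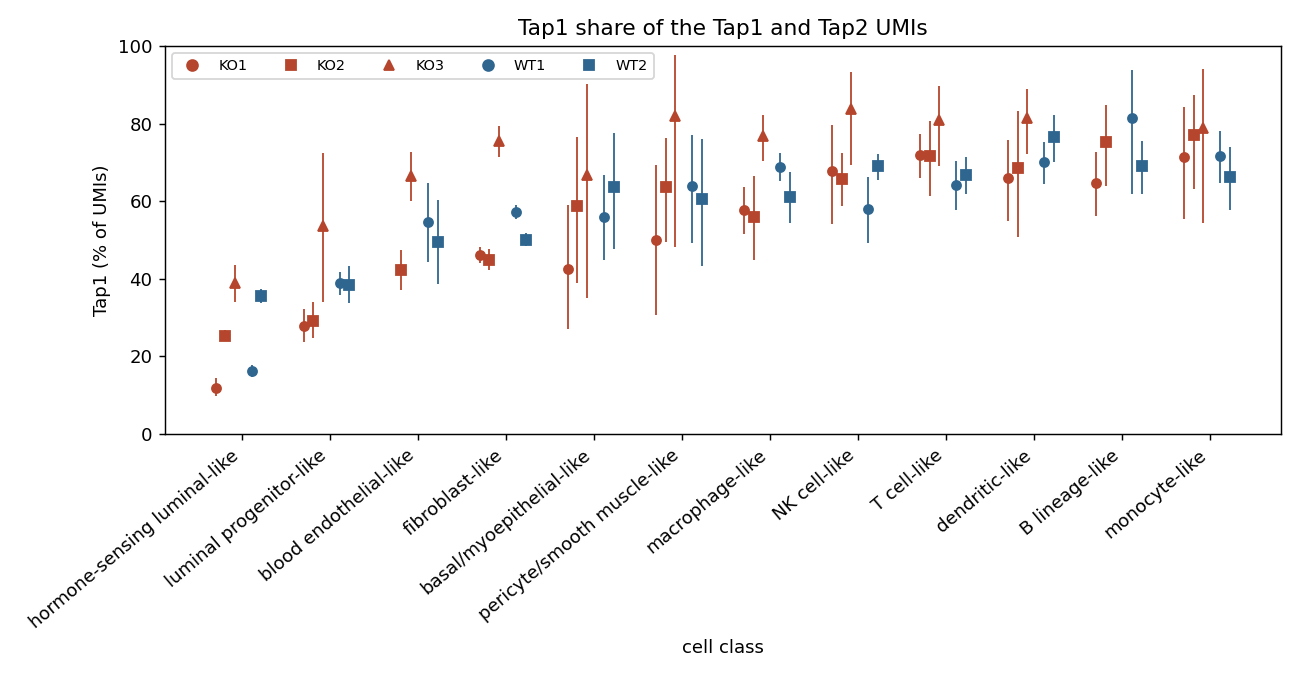
Tap1 UMIs as a percent of Tap1 and Tap2 UMIs (y axis) in each library, by cell class (x axis, ordered by mean), KO libraries in red left of WT libraries in blue; bars are 95% exact Clopper-Pearson intervals, for counting error only. Hormone-sensing luminal-like cells have the lowest mean, 25.5%, and KO3 (triangles) has the highest share in each class it was measured in.

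Between genotypes, luminal progenitor-like cells of the KO libraries had lower levels of most of the 10 genes. Nlrc5 was at 2.79, 3.72 and 1.89 CPM in KO1, KO2 and KO3, against 11.3 and 7.63 CPM in WT1 and WT2, on 20, 22 and 1 UMIs against 90 and 42 UMIs. Every KO library lay below both WT libraries, with a log2 difference of -1.61 ± 0.38 (SE). Psmb9 was at 13.3, 18.6 and 3.78 CPM in KO libraries, against 42.9 and 26.7 CPM in WT libraries, again with no overlap. Its log2 difference was -1.30 ± 0.38, on 95, 110 and 2 UMIs against 343 and 147 UMIs. The KO3 values of Nlrc5 and Psmb9 lay under the floor of 3 UMIs. Tap1 was at 17.3, 19.0 and 28.4 CPM, against 50.3 and 29.6 CPM in WT libraries. The groups of Tap1 were separated by a narrow gap between KO3 and WT2, and its log2 difference was -1.04 ± 0.28. Psmb8 was at 81.8, 101 and 68.1 CPM in KO libraries, against 171 and 115 CPM in WT libraries (-0.76 ± 0.25).

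The other 6 genes had smaller differences in these cells, from -0.29 for Psme1 to -0.64 for Tap2. In 9 of the 10 genes all KO libraries lay below both WT libraries, Psme2 being the exception, and 6.21% of all 11618 genes showed such a pattern. That share describes the contrast the genes were selected on and is given for scale. The median of the 10 log2 differences was -0.55 (0.00 over all genes) and lay between -0.78 and -0.44 when each library was left out in turn. Of the partners that are not members, most lists differed less. Psmb5, Psmb6 and Psmb7 had 0.12 ± 0.20, -0.03 ± 0.22 and -0.09 ± 0.23, and the 11 other core subunits a median of -0.05. The 4 loading partners had a median of -0.04. The 9 measured class I heavy chain and B2m genes differed more than the members, with a median of -1.11. The 13 interferon receptors and signal transducers had a median of -0.07.

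**Figure D4:**
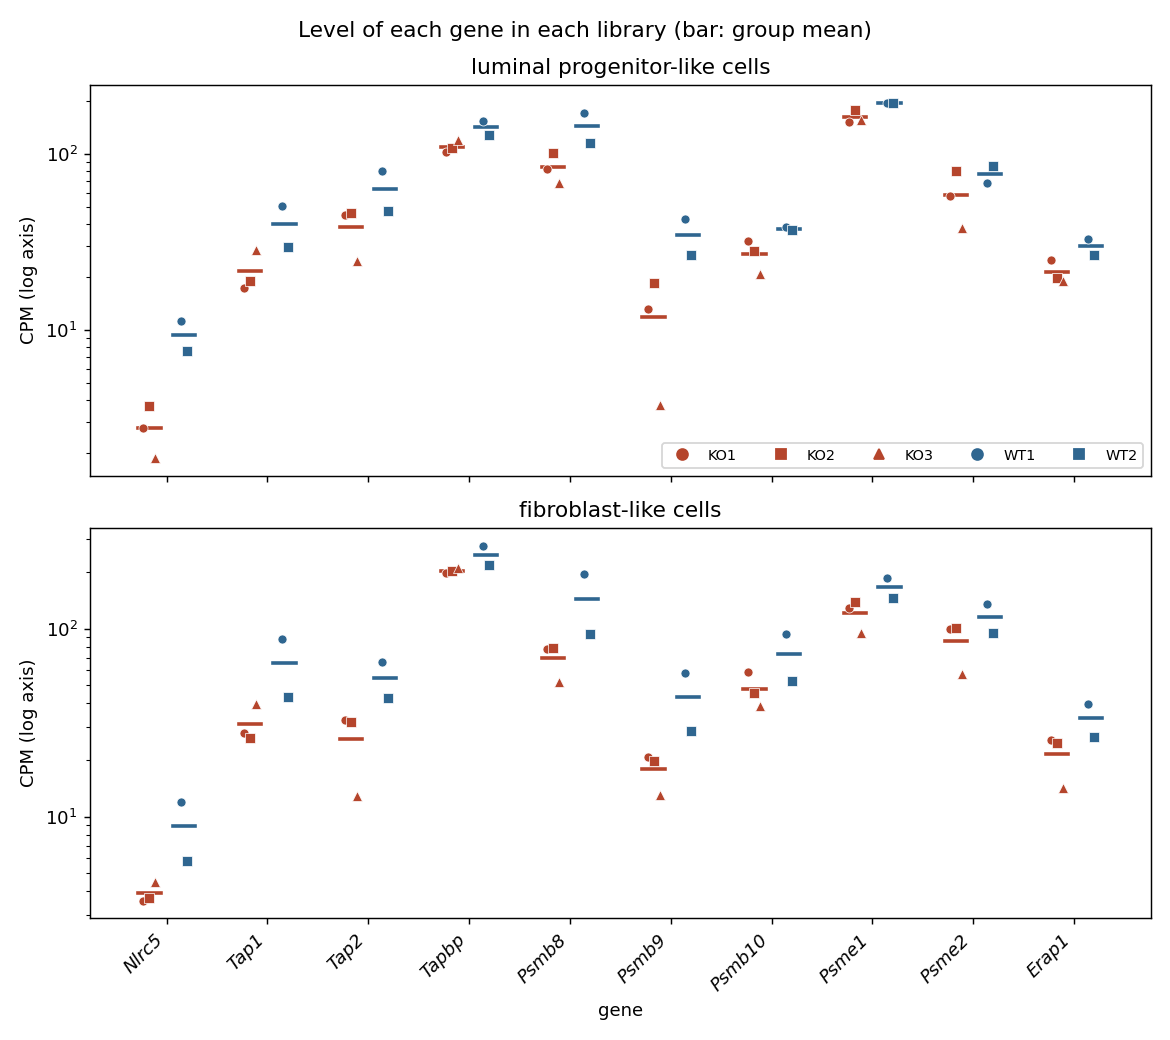
CPM of each gene (x axis) in each library on a log axis, for luminal progenitor-like cells (top) and fibroblast-like cells (bottom), KO libraries in red left of WT libraries in blue; symbols are replicate numbers and bars are group means. Nlrc5 lies at 1.89 to 3.72 CPM in the KO libraries and 7.63 to 11.3 CPM in the WT libraries of luminal progenitor-like cells, and WT1 is the highest library of all 10 genes in fibroblast-like cells.

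RNA of leukocytes was lower in the same sums. The 8 pan-leukocyte genes together came to 29.9, 15.2 and 17.0 CPM in luminal progenitor-like cells of KO1, KO2 and KO3, against 39.4 and 36.9 CPM in WT1 and WT2; all 8 had UMIs in every library except KO3, where Cd52, Coro1a, Rac2 and Arhgdib were at 0. Without the cells that held any UMI of these genes, the median of the 10 log2 differences was -0.60. The 8 heat-shock genes came to 5053, 7256 and 19231 CPM in KO libraries, against 5094 and 6290 CPM in WT libraries, and their part in the result was not tested; without KO3 the median was -0.46. Luminal progenitor-like cells numbered 776, 409 and 50 in KO libraries and 743 and 292 in WT libraries. Of these, a cluster led by Kit, BC006965 and Slc5a7 held 307, 75 and 26 in KO libraries and 207 and 32 in WT libraries. Its median depth was 4550 UMIs, against 11815 UMIs in the cluster led by Plet1, Lcn2 and Wfdc18 that held the rest. The part of these cluster shares in the levels was not tested.

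In hormone-sensing luminal-like cells the KO and WT ranges overlapped in all 10 genes (KO below WT in 4.83% of all genes), and the median log2 difference was -0.17 and turned to 0.13 without WT2. Nlrc5 had 3.73, 6.55 and 1.47 CPM in KO libraries, against 3.79 and 17.2 CPM in WT libraries, so its log2 difference of -1.36 ± 0.79 rested on WT2 and was 0.04 without it. KO2 and WT2 were the 2 highest libraries in 9 of the 10 genes. Those 2 libraries also differed from KO1 and WT1 in which cells made up the class: 1129 of 1433 cells of KO2 and 687 of 866 of WT2 fell in a cluster led by Fgb, Upk3a and Ffar4, against 3 of 236 cells of KO1 and 4 of 545 of WT1. Most cells of KO1 and WT1 were in a cluster led by Nrxn3, Aoc1 and Dmbt1, with 233 and 533 cells. KO3 had most of its 156 cells, 126, in a cluster led by Tmem56, Slc12a2 and Wnt4.

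Basal/myoepithelial-like cells were few, with 131, 32 and 37 cells in KO libraries and 134 and 63 in WT libraries. The filter on low counts was passed by 9 of the 10 genes, and 7 of these had negative differences, with a median of -0.31 that was 0.01 without WT1. Of the 9, Tapbp and Erap1 lay below in all KO libraries (6.4% of all genes). Tapbp had 68.0, 55.1 and 53.0 CPM in KO libraries, against 84.4 and 71.8 CPM in WT libraries. Nlrc5 did not pass the filter. It had 2.16, 10.2 and 2.04 CPM in KO libraries, against 16.9 and 10.7 CPM in WT libraries. Its KO1 and KO3 values lay under the floor of 3 UMIs, which was 3.24 CPM in KO1 and 6.11 CPM in KO3.

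Fibroblast-like cells were the most numerous, with 1000 to 2938 cells in each KO library and 1715 and 2392 in the WT libraries. All 10 genes had negative log2 differences, with a median of -0.84 (0.00 over all genes), and in 8 the KO libraries lay below both WT libraries (3.91% of 14240 genes). Psmb9 was at 20.8, 19.8 and 13.1 CPM in KO libraries, against 58.0 and 28.6 CPM in WT libraries, a log2 difference of -1.26 ± 0.34 (SE). Nlrc5 was at 3.58, 3.70 and 4.47 CPM in KO libraries, against 11.9 and 5.80 CPM in WT libraries (-1.18 ± 0.34). WT1 was the highest library in all 10 genes. Without it the median difference was -0.43, and all 10 differences were negative.

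Tap1 in fibroblast-like cells had 28.0, 26.1 and 39.7 CPM in KO libraries, against 88.4 and 43.1 CPM in WT libraries (-1.08 ± 0.32). Psmb8 had 78.0, 78.8 and 52.3 CPM, against 195 and 94.2 CPM (-1.04 ± 0.34). The edgeR test called none of the 10, with an adjusted p of 0.9998 for each, and none of all genes in this class (0%); 100 genes were under an unadjusted p of 0.05, and DESeq2 called 1. The constitutive subunits were at -0.22 ± 0.31, -0.31 ± 0.29 and -0.24 ± 0.31 for Psmb5, Psmb6 and Psmb7, and the 10 class I heavy chain and B2m genes had a median of -1.05. Pan-leukocyte genes summed to 27.0, 32.2 and 24.2 CPM in KO libraries, against 37.3 and 50.5 CPM in WT libraries. The fibroblast clusters were unequally filled: a cluster led by Sfrp2, Cxcl13 and Pi16 held 766 of 1396 cells of KO2 and 1266 of 2392 of WT2, against 148 of 2938 of KO1, 219 of 1000 of KO3 and 79 of 1715 of WT1. The part of these cluster shares in the levels was not tested.

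In macrophage-like cells Nlrc5 had the largest difference of the 10. This class held 490 cells of KO1 and leaves out the unnamed cluster of 3779 KO1 cells with macrophage markers, whose part in the levels was not tested. Nlrc5 was at 17.6, 16.02 and 21.6 CPM in KO libraries, against 45.3 and 38.1 CPM in WT libraries, with no overlap and a log2 difference of -1.17 ± 0.29 (SE; edgeR adjusted p = 0.999). It stayed between -1.32 and -1.08 when each library was left out. All 10 genes had negative differences, with a median of -0.49, or -0.20 without WT1, and Nlrc5 and Psmb9 were the 2 with no overlap (5.97% of all genes). Among all genes edgeR called 1 (0.0112%), which is not a member.

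**Figure D5:**
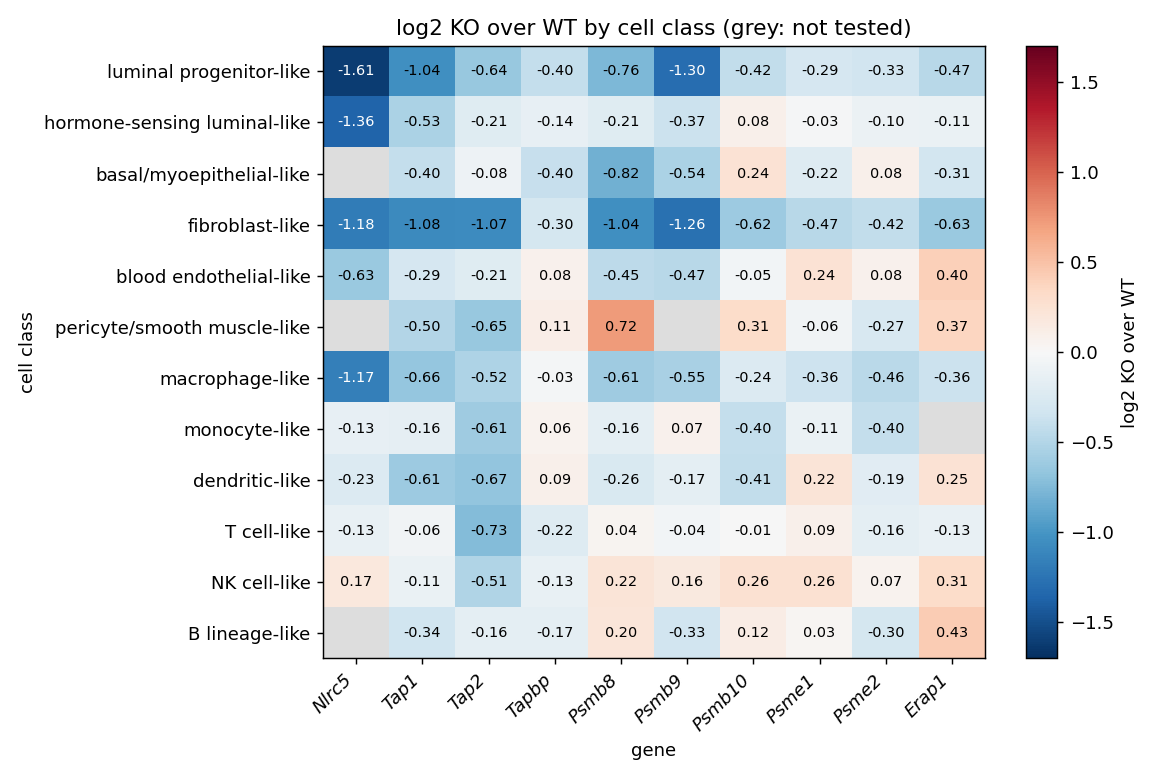
Fitted log2 KO over WT of each gene (columns) in each cell class (rows), blue for lower and red for higher in the KO libraries; grey squares did not pass the filter on low counts. Luminal progenitor-like, fibroblast-like and macrophage-like cells have 10 negative values each, with medians of -0.55, -0.84 and -0.49, and NK cell-like cells have 7 positive values.

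In the remaining classes the groups mostly overlapped and signs were mixed. The median log2 difference was -0.13 in blood endothelial-like, 0.02 in pericyte/smooth muscle-like, -0.16 in monocyte-like, -0.21 in dendritic-like, -0.09 in T cell-like, 0.17 in NK cell-like and -0.16 in B lineage-like cells. Of the genes tested, those with all KO libraries below WT were Tap1 in blood endothelial-like cells (12% of all genes), Tap2 in pericyte/smooth muscle-like cells (7.05%) and Tap2, Psme1 and Psme2 in monocyte-like cells (9.42%). In dendritic-like cells they were Tap1 and Tap2 (10.2%), in T cell-like and NK cell-like cells Tap2 alone (10% and 9.16%), and in B lineage-like cells Tapbp and Psmb9 (16.3%). Tap2 was named most often, but in T cell-like and NK cell-like cells 1 of 10 genes was near the share of all genes. Tap2 was also lowest in KO3 in 9 of 10 classes, and the part of that library in these counts was not tested. In T cell-like cells Tap2 had 30.3, 42.7 and 35.4 CPM in KO libraries, against 62.3 and 59.4 CPM in WT libraries (-0.73 ± 0.29, SE, edgeR adjusted p = 0.998). No gene was called in these 7 classes (0% of all genes in each), where 46 to 293 genes were under an unadjusted p of 0.05 and DESeq2 called 0 to 2.

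The genes varied together over the 58 sums of library and class, but not equally. Pearson's r of log2(CPM + 1), a description over points that share libraries and depth, had a median of 0.62 over the 45 pairs. The closest pairs were Psmb8 with Psmb9 (0.92), Psmb8 with Psme1 (0.91) and Psme1 with Psme2 (0.85). Psmb9 and Tap1, which share the stretch shown above, had 0.72. Tap1 and Tap2, partners in the transporter, had 0.29, and Erap1 with Psme1 had the lowest value, 0.23. Against the mean of the other 9 genes, Psmb8 had 0.90, Tap2 0.56 and Erap1 0.40. Among 6160 other genes with a mean of at least 20 CPM, those most like the mean of the 10 were the class I heavy chains H2-D1 (0.92), H2-K1 (0.91), H2-Q7 (0.88) and H2-T22 (0.86), and Prr13 (0.86), a proline-rich protein gene.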

How the data were processed

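For 5 libraries the authors deposited raw UMI counts of each gene in each barcode, made with Cell Ranger (6.0.2, and 6.1.2 for KO3, per the file headers) on mm10, per the submitters' processing notes. Library preparation, per the labels' protocols, was a droplet 3′ kit. The members and all gene lists were chosen with earlier results of these data known. Cells needed 500 detected genes, with mitochondrial UMIs of 15% or less. Doublets were scored against 2 simulated doublets per cell, and 0.8% per 1000 barcodes were removed, 1754 in all. Clusters (2000 variable genes without the members and other class I and interferon genes, 30 principal components, 20 neighbours, Leiden resolution 1; leidenalg 0.10.2) numbered 39, and 3 stayed unnamed. The naming thresholds (3 markers detected in 10% of cells, a marker score of at least 0.5 log2 and 0.5 above the next class) were set after seeing the data.

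Counts were summed per library and class with at least 20 cells. The 308558851 UMIs of 32472 barcodes set the precision. Exact intervals cover counting error only, and PCR copies are collapsed by the UMI. The main test was edgeR 4.0.16 (R 4.3.3; filterByExpr, TMM, robust quasi-likelihood) on all genes, Benjamini-Hochberg adjusted, threshold 0.05. Genotypes were fitted class by class, and classes were fitted together with the library as a block. Each SE is the absolute log2 difference divided by the square root of the F statistic. CPM values carry no TMM factors, log2 differences do. Sums of KO1 for blood endothelial-like and of KO3 for B lineage-like cells held too few cells and were not used. Alternatives were DESeq2 1.42.0 and its size factors, no low-count filter, no scaling factors, doublets kept, a marker gate in place of clusters, looser cell filters, each library left out, each genotype alone, the replicate number as a block and a pseudocount of 10. Scripts were tested on simulated data. Named genes are the 10 members, up to 3 called genes per list with the largest difference in the comparisons shown, the constitutive subunits, and the 5 genes most like the members.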

Additional observations from a re-analysis of the deposited data

Results flagged for a closer look

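For 2 of the 10 genes the KO libraries lay on opposite sides of the WT libraries in a pair of cell classes, and in neither case was the difference between the classes tested. Psmb8 had all KO libraries above both WT libraries in B lineage-like cells (log2 0.20), as had 10.2% of all genes. It had all below them in fibroblast-like cells (log2 -1.04), as had 3.91% of all genes. Its B lineage-like levels were 162 and 147 CPM in KO1 and KO2, against 139 and 144 CPM in WT1 and WT2, with KO3 not measured there. Psmb10 had all KO libraries above both WT libraries in NK cell-like cells (log2 0.26), as had 6.03% of all genes. It had all below them in luminal progenitor-like cells (log2 -0.42), as had 6.21% of all genes. Its NK cell-like levels were 99.0, 100.4 and 101 CPM in KO libraries, against 95.2 and 78.8 CPM in WT libraries. Of the genes tested, 1 of 9 lay above in B lineage-like and 1 of 10 in NK cell-like cells, near the shares of all genes.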

How the results depend on the processing

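The median KO/WT log2 difference of the members kept its sign with each library left out in luminal progenitor-like cells (-0.78 to -0.44), fibroblast-like cells (-1.12 to -0.43), macrophage-like cells (-0.70 to -0.20), monocyte-like cells (-0.45 to -0.10) and NK cell-like cells (0.04 to 0.19). In fibroblast-like and macrophage-like cells the value nearest 0 came without WT1 and the farthest without WT2. It took both signs in hormone-sensing luminal-like (-0.43 to 0.13), basal/myoepithelial-like (-0.56 to 0.01), blood endothelial-like (-0.42 to 0.27), pericyte/smooth muscle-like (-0.39 to 0.36), dendritic-like (-0.60 to 0.03), T cell-like (-0.25 to 0.12) and B lineage-like cells (-0.14 to 0.43). Among the counts of members that differed from fibroblast-like cells, the WT libraries alone gave 2 in luminal progenitor-like cells, 2 in blood endothelial-like cells, 4 in macrophage-like cells, 3 in T cell-like cells, 2 in NK cell-like cells and 2 in B lineage-like cells, against 4, 8, 9, 6, 6 and 4 with all libraries, a fit with fewer samples. The KO libraries alone gave 4 in basal/myoepithelial-like cells and 3 in pericyte/smooth muscle-like cells, against 8 and 7. Leaving out single libraries gave 4 to 8 in blood endothelial-like cells, with 4 without KO2, and 4 to 7 in pericyte/smooth muscle-like cells, with 4 without KO1.

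Without scaling factors, an alternative chosen after seeing the data, pericyte/smooth muscle-like cells had 3 members past the test, and the median log2 difference of all genes moved by -0.19 to 0.38 over the class contrasts; DESeq2 size factors moved it by -0.17 to 0.20. The members' median less that of all genes was -0.61 in pericyte/smooth muscle-like cells and 0.19 in B lineage-like cells as reported, and -0.62 and 0.19 without scaling factors. The share of called genes that were higher was 57.3% without scaling factors, against 40.9% as reported, in basal/myoepithelial-like cells, 53.7% against 42.6% in blood endothelial-like cells, 60.1% against 38.1% in pericyte/smooth muscle-like cells and 55.4% against 42.7% in B lineage-like cells. For luminal progenitor-like over basal/myoepithelial-like cells it was 41.1% against 55.3%. With DESeq2 size factors it was 50.8% in pericyte/smooth muscle-like cells and 42.4% for luminal progenitor-like over basal/myoepithelial-like cells.

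The KO and WT libraries share numbers 1 and 2, which the labels do not tie to a litter or day. A fit with the replicate number as a block, in which KO3 had a block of its own, called 194 genes in luminal progenitor-like cells (58 higher, 136 lower), 137 in hormone-sensing luminal-like, 1 in basal/myoepithelial-like, 2 in fibroblast-like, 8 in macrophage-like, 6 in pericyte/smooth muscle-like, 1 in monocyte-like, 3 in dendritic-like, 1 in T cell-like and 4 in NK cell-like cells, against 1 in macrophage-like cells and 0 in the other classes without it. The members' medians under the block were -0.45 in luminal progenitor-like, -0.05 in hormone-sensing luminal-like, -0.18 in basal/myoepithelial-like, -0.58 in fibroblast-like, -0.33 in macrophage-like, -0.34 in monocyte-like, -0.61 in dendritic-like, -0.25 in T cell-like, 0.07 in NK cell-like and -0.13 in B lineage-like cells, and -0.30, the opposite sign, in pericyte/smooth muscle-like cells (0.02 without it). In hormone-sensing luminal-like cells the block gave -1.01 ± 0.27 for Nlrc5 and -0.48 ± 0.14 for Tap1 (SE), the largest differences of the members there. KO3 adds nothing to these estimates, and the fit leaves little residual spread from which to estimate their errors. For Nlrc5 the levels of KO1 and WT1 were nearly equal, so its difference rested on KO2 and WT2. Over 5 classes r of deviations across genes was 0.19 to 0.64 for KO1 and WT1 and 0.18 to 0.72 for KO2 and WT2. KO3 and WT1 had -0.06 to 0.43. The 2 WT libraries mirror each other, so pairing was not tested. DESeq2 called 5 genes in macrophage-like cells. With 3 KO and 2 WT libraries and UMI sums that were low in several classes, the KO/WT estimates of single members carried wide errors.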
